A study of Mus musculus with 6 samples.

Results

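The 40 genes described here encode the machinery of autophagy and the proteins of the lysosome, and they were chosen by name from the table of gene expression. All 40 were found, 1 table line each, among 57180 listed genes. They comprise 7 genes of autophagy initiation, 6 of the conjugation machinery, the 5 genes of the LC3 and GABARAP family, 3 cargo receptors, the transcription factors *Tfeb* and *Tfe3*, 5 genes of lysosomal membrane proteins and 12 of proteins in the lysosomal lumen. RNA came from cultured hepatocytes of male mice, 3 libraries from STING floxed animals (LOXP) and 3 from animals with a liver-specific STING knockout (KO, STINGLKO). In the knockout, the deletion depends on a Cre recombinase driven by Albumin, a gene expressed in hepatocytes. The floxed controls are not described as carrying Cre, so the loss of STING and the presence of Cre cannot be told apart. Both groups were cultured with dexamethasone and serum and received the saturated fatty acid palmitate at 0.1 mM over 24 h. Each value below is thus from palmitate-treated cells. The labels give no age and do not say whether the 3 libraries of a group came from separate animals. The p-values then measure only the spread between these libraries, which may be technical. The comparison asks which of these genes differ when hepatocytes lack STING.

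Autophagy encloses cytoplasm, organelles or lipid droplets in a membrane that closes into an autophagosome and fuses with the lysosome, where acid hydrolases break the content down. The ULK1 kinase complex and the Beclin 1 lipid kinase complex start the process. A ubiquitin-like system built on ATG5, ATG12 and ATG16L1 attaches LC3 and GABARAP proteins to the growing membrane, and receptors such as p62 (*Sqstm1*) bring it cargo. TFEB and TFE3 drive transcription of lysosomal and autophagy genes through a DNA element called the CLEAR motif, and activated STING is itself known to cause LC3 to be attached to membranes. In hepatocytes, lysosomal acid lipase (*Lipa*) breaks down lipids delivered by this route.

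The DNA letters of the CLEAR motif centre on CACGTG, which reads the same on both strands, so the windows around the members' start sites are shown first. RefSeq promoter windows of build GRCm38.p6, from 250 bases before to 50 bases after the start, were matched by symbol for 34 of the 40 genes, with *Becn1*, *Atg12*, *Atg16l1*, *Map1lc3a*, *Npc1* and *Ctsb* unmatched. CACGTG occurred in a window of 10 of these 34 genes (29.4%), against 8.09% of the 27025 genes with a window. The longer TCACGTGA, which contains CACGTG, occurred in 5 of 34 (14.7%, against 1.12% of genes). The 10-base palindrome of the CLEAR motif, which contains both, occurred in 0 of 34 (against 0.37% of genes). A match describes these letters only and does not show binding by any factor. *Atg5* is printed in full because it had the smallest adjusted p among the 40 genes, and *Lamp1* because it carried 4 copies, the most of any member, at chr10:44268089-44268388 and chr8:13158911-13159210, both on the plus strand. Neither of these 2 windows holds TCACGTGA. The 5 genes with TCACGTGA in a window are each shown by 1 copy with 12 bases on either side of CACGTG. Capitals mark CACGTG, and each line reads 5′ to 3′ along the gene's strand.

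Atg5 promoter: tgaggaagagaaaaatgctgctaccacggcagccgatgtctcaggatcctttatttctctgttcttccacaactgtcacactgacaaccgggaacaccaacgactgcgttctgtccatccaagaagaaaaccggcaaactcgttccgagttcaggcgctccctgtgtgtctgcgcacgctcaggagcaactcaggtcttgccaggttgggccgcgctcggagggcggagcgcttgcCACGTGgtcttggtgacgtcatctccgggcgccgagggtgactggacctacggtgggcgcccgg

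Lamp1 promoter: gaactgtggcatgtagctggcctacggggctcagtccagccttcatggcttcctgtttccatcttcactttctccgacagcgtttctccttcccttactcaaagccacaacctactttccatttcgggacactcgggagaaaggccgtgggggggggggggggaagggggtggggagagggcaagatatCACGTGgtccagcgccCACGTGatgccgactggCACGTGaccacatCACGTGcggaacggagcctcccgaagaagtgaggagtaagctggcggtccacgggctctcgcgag

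Atg3, chr16:45158746-45158775, plus strand: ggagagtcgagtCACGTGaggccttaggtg

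Mcoln1, chr8:3500462-3500491, plus strand: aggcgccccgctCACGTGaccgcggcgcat

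Ctsa, chr2:164833766-164833795, plus strand: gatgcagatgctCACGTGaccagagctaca

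Ctsd, chr7:142387908-142387937, minus strand: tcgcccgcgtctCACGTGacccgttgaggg

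Gla, chrX:134601182-134601211, minus strand: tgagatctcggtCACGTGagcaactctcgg

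Among members with a promoter window, median differences between the groups were alike with and without these letters. The 10 genes with CACGTG had a median log2 fold change of -0.12, KO relative to LOXP, with a range from -0.50 in *Atg5* to 0.069 in *Atg14*, and 2 of them, *Atg5* and *Gla*, were called lower. The 24 genes with a window lacking it had a median of -0.12 as well, with 7 called lower, among them *Lamp2* and *Grn*. The 6 members with no window had a median of 0.0059, with 1 called lower. Of all genes tested, 11.6% were called lower. These medians describe the lists and were not tested.

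Counted reads per library ran from 14726983 to 18536985, and the 40 genes took from 1.07% to 1.22% of them in each library. Counts were normalised by edgeR's TMM method and are given as normalised CPM (counts scaled to a fixed library size), and differences as log2 fold changes, KO relative to LOXP. Each adjusted p is two-sided, by the quasi-likelihood test of edgeR with Benjamini-Hochberg correction over the 14151 genes with enough counts. All 40 members passed that filter on low counts, with between 88 reads (*Tfeb*) and 53256 reads (*Sqstm1*) in a library. *Sting1*, the targeted gene, had 19, 16 and 23 reads in LOXP and 24, 23 and 15 in KO replicates 1, 2 and 3 (log2 fold change -0.078, adjusted p = 0.883). Which part of the gene was deleted is not given in the sources used here. In these counts the genotype thus rests on the labels, and KO below means the libraries labelled so. Hepatocyte markers were abundant in every library, with a summed level in FPKM (the authors' scale of fragments per gene length and library depth) of 10746 to 11128 in LOXP and 9117 to 9319.8 in KO. Most of that sum was *Alb*, at 7493 to 7791 FPKM in LOXP and 6468 to 6584 in KO. Of the 14 tested, 11 fell in KO, where 11.6% of all genes tested were called lower and 11.5% higher. The 9 lymphocyte markers had 0 reads in every library, which allows up to 3 reads in each, and the 6 neutrophil markers had 10 reads in all. Of 15 macrophage markers, which matter here because Kupffer cells are rich in lysosomes, none was at 0 in every library. Their summed level was 31.1 to 46.0 FPKM in LOXP and 36.6 to 42.0 in KO, ranges that overlap, and 1 of the 13 tested, *Mpeg1*, fell (log2 fold change -0.69, adjusted p = 0.00401). The most abundant of them were *Lyz2* at 7.92, *Mpeg1* at 5.48 and *C1qa* at 5.08 FPKM. Summed endothelial markers were at 29.1 to 31.0 FPKM in LOXP and 26.8 to 29.2 in KO, with 1 of 9 tested lower, and stellate cell markers at 6.70 to 7.51 FPKM in LOXP and 7.36 to 8.26 in KO, with 0 of 9 called. Cholangiocyte markers were at 119 to 140.2 FPKM in LOXP and 61.8 to 72.7 in KO, with 3 of 4 tested lower and 1 higher. Most of that sum was *Cldn4*, at 99.3 to 117 FPKM in LOXP and 51.4 to 61.0 in KO. *Krt19*, with a mean of 1.25 FPKM, was the 1 that rose. *Krt7* and *Epcam* had means of only 0.023 and 0.12 FPKM, so the sum does not describe the list as a whole. The part of other cells and of the fall of hepatocyte markers in the differences below was not tested, and in bulk RNA fewer cells of a type and less RNA per cell cannot be told apart.

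Of the 40 genes, 10 fell and 1 rose in KO at an adjusted p under 0.05, and 29 did not pass. Across all genes tested, 11.6% passed this test as lower and 11.5% as higher (23.1% together), against 25% and 2.5% of the members (27.5% together). The members' share of calls was thus near that of all genes, while their direction was unequal, with 28 of 40 log2 fold changes below 0 where 50.3% of all genes tested were below 0. The members' median log2 fold change was -0.12, against -0.0021 for all genes tested, and the range ran from -0.50 (*Atg5*) to 0.28 (*Sqstm1*). None of the 40 met the study's criteria for differential expression. These ask for a log2 fold change beyond 1 in size, a corrected p under 0.05 and, in at least 1 group, an average over 1 FPKM, and 1.49% of genes tested met them as lower and 0.558% as higher. DESeq2 also gave 0 such members, while 18 of the 40 had an unadjusted p under 0.05 by the quasi-likelihood test in edgeR, against 35.9% of all genes tested. The normalised CPM of the groups did not overlap for 17 members that were lower and 1 that was higher in KO, against 20.3% and 20.4% of all genes tested (40.7% in either direction). The lists were chosen with earlier results of these data known, and no test of the list as a whole was made.

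**Figure D1:**
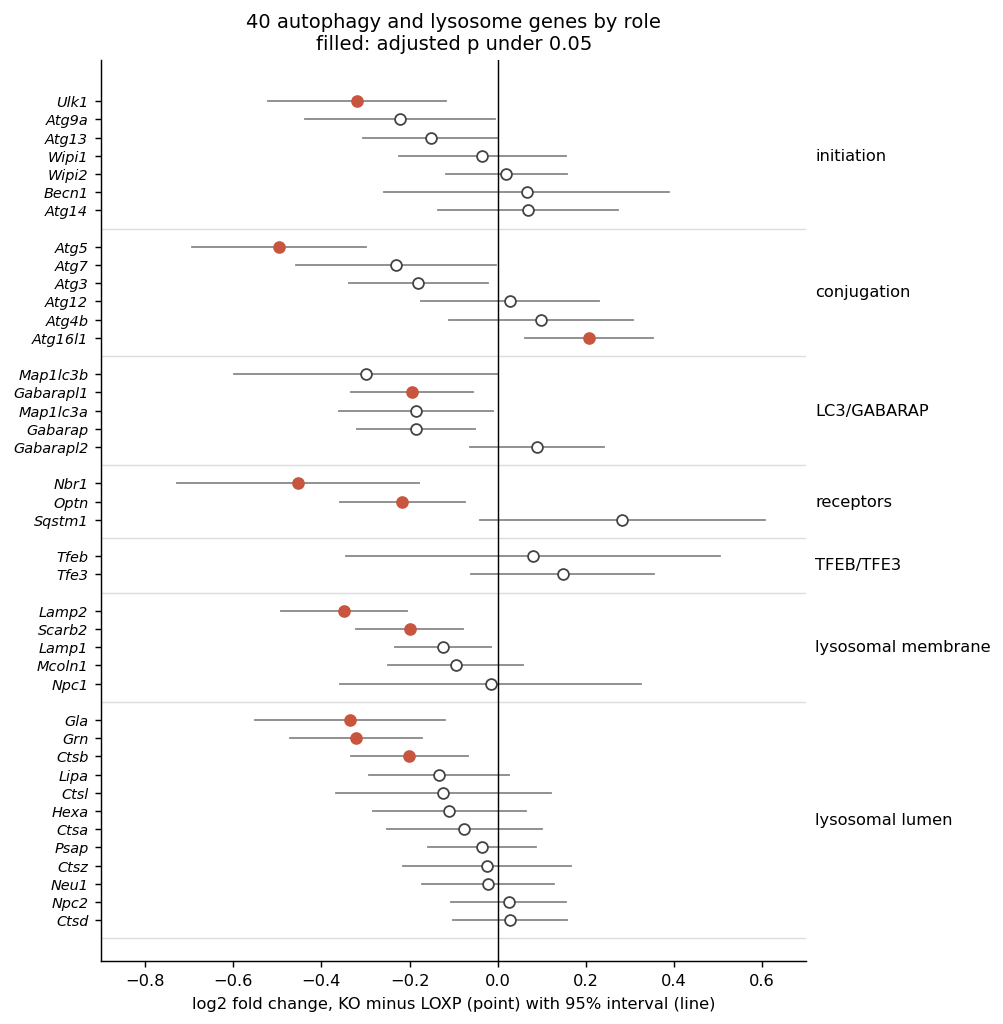
Log2 fold change of each of the 40 genes, KO minus LOXP (horizontal axis), with its 95% interval from the quasi-likelihood fit (line), arranged by role, where filled points had an adjusted p under 0.05. The points run from -0.50 for *Atg5* to 0.28 for *Sqstm1*, and 10 of the 11 filled points lie below 0.

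*Atg5* encodes the protein that joins ATG12 to form the enzyme attaching LC3 to membranes, and it fell most among the members. *Atg5* (ENSMUSG00000038160, chromosome 10, 44144354 to 44240287) had 52.7, 49.0 and 48.7 normalised CPM in LOXP replicates 1, 2 and 3 and 38.6, 36.3 and 31.8 in KO replicates 1, 2 and 3. Every KO library lay below every LOXP library. Group means were 50.1 ± 2.21 CPM in LOXP and 35.6 ± 3.42 in KO (SD, n = 3 each), and the KO level was 0.709 of the LOXP level in the fit (log2 fold change -0.50, standard error 0.0861, adjusted p = 0.00470). The call held under each of 14 alternatives, with log2 fold changes from -0.56 to -0.42. Among the other conjugation genes, *Atg16l1*, whose product brings the ATG12-ATG5 pair to the membrane, was the single member that rose. Its values were 54.3, 53.2 and 51.8 CPM in LOXP and 59.2, 62.3 and 62.3 in KO in the order of replicates 1, 2 and 3 (log2 fold change 0.21, standard error 0.0634, adjusted p = 0.0476). The groups did not overlap, yet the rise was lost without any one of the LOXP replicates or any one of the KO replicates (adjusted p from 0.0572 to 0.138, log2 fold change from 0.19 to 0.23). *Atg5* and *Atg16l1*, which act in 1 complex, thus differed in opposite directions. The third protein of that complex, *Atg12*, had a log2 fold change of 0.028 (adjusted p = 0.856). *Atg7* and *Atg3*, the activating and conjugating enzymes of the system, had -0.23 and -0.18 (adjusted p = 0.133 and 0.0988), and *Atg4b*, the protease that trims LC3, had 0.098 (adjusted p = 0.492).

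Of the initiation genes, 1 of 7 passed the test as lower (14.3%, against 11.6% of all genes tested). *Ulk1* (ENSMUSG00000029512, chromosome 5, 110932354 to 110957963), the kinase that starts autophagy, was at 51.8, 60.3 and 55.4 CPM in LOXP and 43.7, 41.7 and 48.9 in KO (log2 fold change -0.32, standard error 0.0881, adjusted p = 0.0328). All KO values were under all LOXP values, but the call was lost without LOXP replicate 2 or 3 or KO replicate 1 or 2 (adjusted p from 0.0762 to 0.115, log2 fold change from -0.32 to -0.26). *Becn1*, encoding Beclin 1, had 73.7, 86.6 and 57.5 CPM in LOXP and 68.6, 76.2 and 83.1 in KO, with the lowest and the highest value of all 6 libraries both in LOXP (log2 fold change 0.066, 95% interval from -0.26 to 0.39, adjusted p = 0.784). Its sign turned to -0.077 without LOXP replicate 3 and to -0.0011 without KO replicate 3. *Atg13* and *Atg9a*, a ULK1 partner and a lipid scramblase of the growing membrane, had -0.15 and -0.22, and *Atg14*, *Wipi1* and *Wipi2*, which act with or bind the product of the Beclin 1 complex, lay between -0.035 and 0.069, with adjusted p from 0.129 to 0.855 over these 5 genes.

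The LC3 and GABARAP genes encode the small proteins that coat the autophagosome. Within the family, 4 of 5 members had KO values that lay below the LOXP values without overlap, and 1 of them passed the test, against 20.3% and 11.6% of all genes tested. *Gabarapl1* (ENSMUSG00000030161, chromosome 6, 129510123 to 129519309) was at 113, 123 and 119 CPM in LOXP and 101, 107 and 103 in KO (log2 fold change -0.19, standard error 0.0604, adjusted p = 0.0495). The groups did not overlap, and the call was lost without LOXP replicate 2 or 3 or any one of the KO replicates (adjusted p from 0.101 to 0.148, log2 fold change from -0.22 to -0.16). *Gabarap* just missed the threshold (log2 fold change -0.18, adjusted p = 0.0536) and *Map1lc3a* had -0.19 (adjusted p = 0.119). *Map1lc3b*, the LC3 gene most used as a readout of autophagy, was at 82.6, 120.0 and 87.0 CPM in LOXP and 77.1, 77.5 and 80.6 in KO. LOXP replicate 2 stood well above the other 5 libraries, which lay close together, and the log2 fold change of -0.30 (95% interval from -0.60 to -0.00012, adjusted p = 0.139) was -0.11 without that library (adjusted p = 0.330). The position of *Map1lc3b* also overlaps that of the gene *Zcchc14*, whose mean count was 73.0% of its own. Whether reads were shared was not tested, and the strand setting of the counting is not given in the sources used here. *Gabarapl2* had a log2 fold change of 0.089 (adjusted p = 0.386).

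Cargo receptors link ubiquitin-marked material to LC3. Of the 3 measured here, 2 passed the test as lower (66.7%, against 11.6% of all genes tested called lower), and *Sqstm1* did not pass. *Nbr1* (ENSMUSG00000017119, chromosome 11, 101442975 to 101472777) was at 119.5, 107 and 112 CPM in LOXP and 88.4, 66.3 and 93.1 in KO (log2 fold change -0.45, standard error 0.120, adjusted p = 0.0284). KO replicate 2 was the lowest of all libraries, and without it the log2 fold change was -0.32 (adjusted p = 0.0409), while the call was lost without LOXP replicate 1 or 3 or KO replicate 1 (adjusted p from 0.05003 to 0.0760, log2 fold change from -0.50 to -0.41). *Optn*, encoding optineurin, was at 78.3, 82.3 and 77.4 CPM in LOXP and 69.9, 68.6 and 66.4 in KO (log2 fold change -0.22, standard error 0.0624, adjusted p = 0.0383). Its groups did not overlap, and the call was lost without LOXP replicate 2 or 3 or any one of the KO replicates (adjusted p from 0.0676 to 0.116, log2 fold change from -0.23 to -0.19). *Sqstm1* (ENSMUSG00000015837, chromosome 11, 50090193 to 50101654), encoding p62, was the most counted of the 40 genes, at 1762, 2596 and 1969.6 CPM in LOXP and 2238, 2874 and 2584 in KO. The groups overlapped, since LOXP replicate 2 exceeded KO replicates 1 and 3, and the spread within each group was wide (log2 fold change 0.28, 95% interval from -0.041 to 0.61, adjusted p = 0.191). Without LOXP replicate 2 the log2 fold change was 0.46 and passed the test (adjusted p = 0.0202), and without LOXP replicate 1 it was 0.17 (adjusted p = 0.432).

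**Figure D2:**
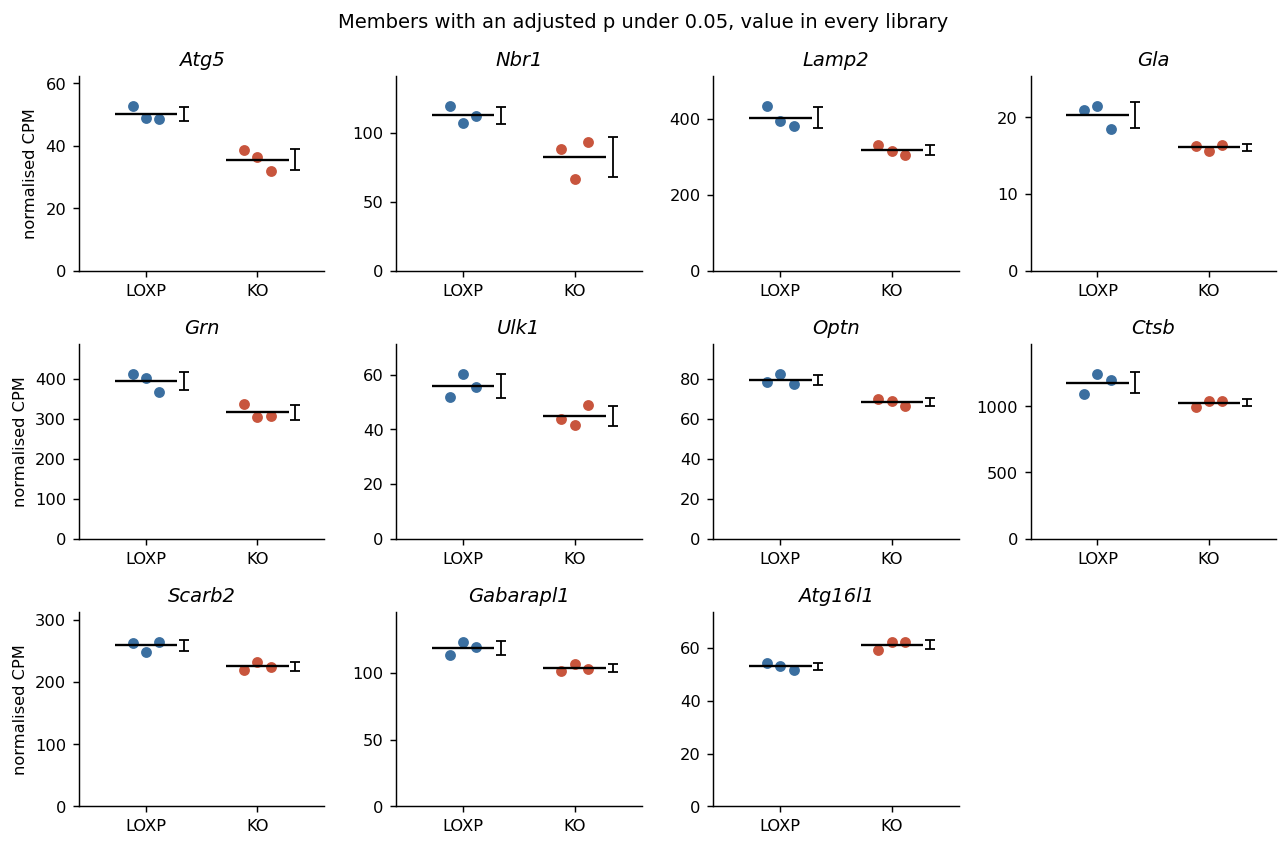
Normalised CPM (vertical axis, from 0) in each library for the 11 members with an adjusted p under 0.05, where points are libraries, horizontal lines the group means and error bars the SD (n = 3 per group). The groups do not overlap in any panel, but the panels were chosen by the test on these same values. Of all genes tested, 40.7% had groups that did not overlap in either direction. *Atg16l1* is the 1 gene higher in KO.

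The transcription factors that switch on this gene set gave no passing difference. *Tfeb* (ENSMUSG00000023990, chromosome 17, 48047955 to 48103344) was the least abundant member, with 6.75, 7.76 and 5.79 CPM in LOXP and 7.58, 5.61 and 8.28 in KO. Its groups overlapped throughout, and the interval was wide (log2 fold change 0.079, 95% interval from -0.35 to 0.50, adjusted p = 0.803). Its sign turned to -0.021 without LOXP replicate 3 and to -0.037 without KO replicate 3. *Tfe3* was at 72.4, 86.4 and 71.0 CPM in LOXP and 90.6, 80.7 and 83.2 in KO, with LOXP replicate 2 inside the range of KO (log2 fold change 0.15, 95% interval from -0.06 to 0.35, adjusted p = 0.288). Transcript levels say nothing of whether these factors were in the nucleus, by which they are chiefly controlled.

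The 5 genes of lysosomal membrane proteins all had log2 fold changes below 0, and 2 passed the test (40%, against 11.6% of all genes tested called lower). *Lamp2* (ENSMUSG00000016534, chromosome X, 37490234 to 37545331), encoding a main protein of the lysosomal membrane that takes part in fusion with autophagosomes and in chaperone-mediated autophagy, had 434, 396 and 382 normalised CPM in LOXP replicates 1, 2 and 3 and 332, 315 and 306 in KO replicates 1, 2 and 3. The lowest LOXP library exceeded the highest KO library, and group means were 404 ± 26.9 CPM in LOXP and 317 ± 13.1 in KO (SD, n = 3 each). The KO level was 0.785 of the LOXP level in the fit (log2 fold change -0.35, standard error 0.0623, adjusted p = 0.00544). This call held under each of 14 alternatives, with log2 fold changes from -0.39 to -0.30. *Scarb2*, which encodes the lysosomal membrane protein LIMP-2, was at 264, 249 and 265 CPM in LOXP and 219, 233 and 225 in KO (log2 fold change -0.20, standard error 0.0531, adjusted p = 0.0283). The groups did not overlap, and the call was lost without LOXP replicate 3 or any one of the KO replicates (adjusted p from 0.0623 to 0.112, log2 fold change from -0.22 to -0.18). *Lamp1*, the close relative of *Lamp2*, was at 1105, 1169.8 and 1166 CPM in LOXP and 1039, 1092 and 1029 in KO. KO values again lay under LOXP values, by a small margin (log2 fold change -0.12, 95% interval from -0.23 to -0.014, adjusted p = 0.100). *Mcoln1*, the calcium channel of the lysosome, had a log2 fold change of -0.096 (adjusted p = 0.351). *Npc1*, which exports cholesterol, had -0.016 (adjusted p = 0.955) and the widest relative spread of the members among LOXP libraries, with a coefficient of variation of 21.2%.

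In the lysosomal lumen, 3 of 12 genes (25%) passed the test, all lower, against 11.6% of all genes tested called lower and 23.1% called in either direction. *Grn* (ENSMUSG00000034708, chromosome 11, 102321141 to 102327874), encoding progranulin, which is secreted and also processed in lysosomes, had 412, 403 and 368 normalised CPM in LOXP replicates 1, 2 and 3 and 338, 304 and 306 in KO replicates 1, 2 and 3. All KO values lay under all LOXP values. Group means were 394 ± 23.5 CPM in LOXP and 316 ± 19.1 in KO (SD, n = 3 each), and the KO level was 0.801 of the LOXP level in the fit (log2 fold change -0.32, standard error 0.0653, adjusted p = 0.00957). The call held under each of 14 alternatives, with log2 fold changes from -0.37 to -0.28. *Gla*, encoding alpha-galactosidase A, was at 21.0, 21.5 and 18.4 CPM in LOXP and 16.3, 15.6 and 16.4 in KO (log2 fold change -0.33, standard error 0.0942, adjusted p = 0.0349). The groups did not overlap, and this call was lost without LOXP replicate 1 or 2 or any one of the KO replicates (adjusted p from 0.0758 to 0.118, log2 fold change from -0.35 to -0.29). *Ctsb*, encoding the cysteine protease cathepsin B, was at 1092, 1246 and 1201 CPM in LOXP and 996, 1039.7 and 1044 in KO (log2 fold change -0.20, standard error 0.0578, adjusted p = 0.0381). KO libraries lay below LOXP libraries, and the call was lost without LOXP replicate 2 or 3 or any one of the KO replicates (adjusted p from 0.0839 to 0.131, log2 fold change from -0.21 to -0.16). Cathepsin B and progranulin are also abundant in macrophages. Of the 13 macrophage markers tested, *Mpeg1* fell (log2 fold change -0.69, adjusted p = 0.00401) and the other 12 did not pass, and their part in these falls was not tested.

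The other 9 lumenal genes had log2 fold changes from -0.13 to 0.028. *Ctsd* (ENSMUSG00000007891, chromosome 7, 141929648 to 141941775), encoding the main aspartic protease of the lysosome, was at 601, 672 and 674 CPM in LOXP and 651, 675 and 658 in KO. LOXP replicate 1 was the lowest and the other 5 libraries lay within a narrow band (log2 fold change 0.028, 95% interval from -0.10 to 0.16, adjusted p = 0.773), and without that library the sign turned to -0.027. *Lipa*, lysosomal acid lipase, was at 138, 119.7 and 122 CPM in LOXP and 119, 113 and 114 in KO. Its KO values lay just under the lowest LOXP value (log2 fold change -0.13, 95% interval from -0.29 to 0.026, adjusted p = 0.211). *Ctsl*, another cysteine protease, had -0.12 and *Ctsz* -0.024, while *Ctsa*, *Neu1* and *Hexa*, a protective protein and glycosidases, had -0.076, -0.021 and -0.11. *Psap*, the precursor of the saposins that assist lipid breakdown, had -0.036 and *Npc2*, a cholesterol carrier, 0.024. Adjusted p for these 7 genes ran from 0.348 to 0.871. Among all 29 members that did not pass, the 95% interval of the log2 fold change lay wholly between -0.25 and 0.25 for 11 and between -0.5 and 0.5 for 26.

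On the scale per gene length the members ranged widely in level. Mean FPKM over the 6 libraries was highest for *Ctsz* at 588, followed by *Lamp1* at 386, *Sqstm1* at 333, *Psap* at 185, *Ctsd* at 181, *Ctsb* at 173 and *Ctsl* at 132. These 7 genes, 6 lysosomal and 1 receptor, exceeded 100 FPKM and held from 75.4% to 79.5% of the summed member FPKM in a library. A further 17 members lay between 10 and 100 FPKM, and 16 lay under 10, down to *Tfeb* at 0.755. The ranges over the 6 libraries of *Ctsz* and *Lamp1* did not overlap, nor did those of *Sqstm1* and *Psap* or of *Ctsb*, *Ctsl* and *Gabarap* in turn. For *Lamp1* and *Sqstm1*, for *Psap*, *Ctsd* and *Ctsb*, and for 31 of the 39 neighbouring pairs in all, the ranges overlapped and the order is not resolved. The gene lengths implied by count and FPKM ran from 1441 bases for *Ctsz* to 20656 bases for *Tfe3*. A gene counted over a longer model, such as *Map1lc3b* or *Lamp2*, has a lower FPKM for the same reads. Of the 7 most abundant members, *Ctsb* alone was called, where 11.6% of all genes tested were called lower and 23.1% in either direction. Summed over the 17 lysosomal members, the level was 1796 to 1985 FPKM in LOXP and 1806 to 1886 in KO. Over the 21 autophagy members without the transcription factors it was 578 to 688 FPKM in LOXP and 626 to 711 in KO, of which *Sqstm1* alone was 251 to 359 in LOXP and 323 to 409.7 in KO. Neither sum separated the groups.

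**Figure D3:**
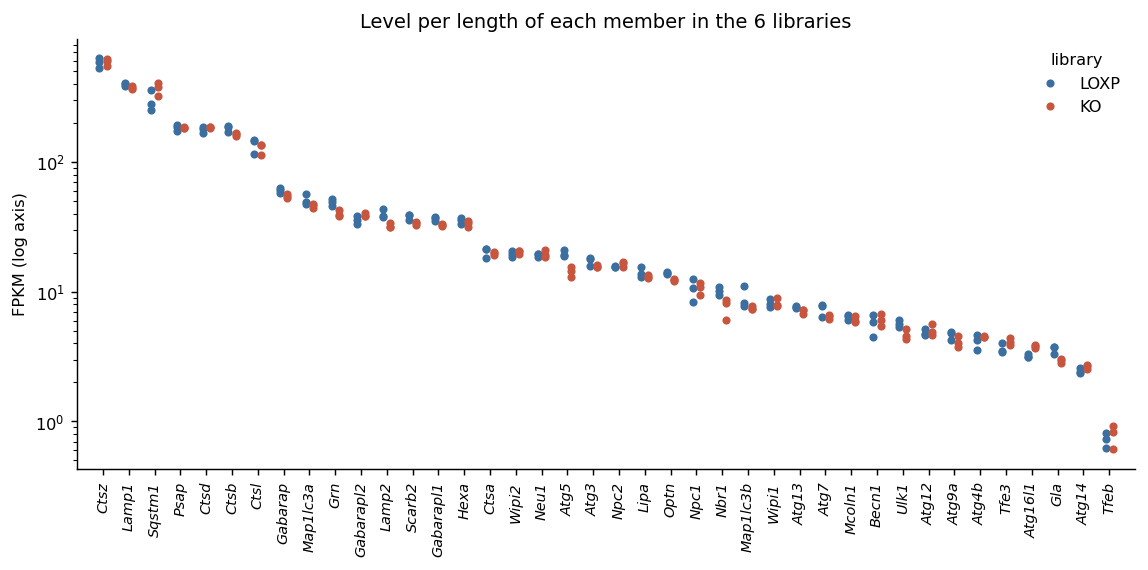
FPKM (vertical log axis) of each of the 40 genes in the 3 LOXP and the 3 KO libraries, in order of the mean over all 6. Levels fall from 588 for *Ctsz* to 0.755 for *Tfeb*, and within most genes the points of both groups lie close together.

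Variation among libraries of 1 group was modest for most members. The median coefficient of variation of normalised CPM was 6.34% in LOXP and 4.25% in KO, with extremes of 0.609% (*Npc2* in LOXP) and 21.2% (*Npc1* in LOXP). For 15 of the 40 genes the highest library was LOXP replicate 2, and for 12 the lowest was KO replicate 1. Standard errors of the log2 fold changes ran from 0.0477 (*Lamp1*) to 0.186 (*Tfeb*). Of the 40 genes, 21 overlap another gene in the table, and for 4 of them, *Atg4b*, *Atg9a*, *Map1lc3b* and *Npc1*, the overlapping gene had at least 10% of the member's mean count. None of these 4 was called, against 23.1% of all genes tested, and 4 genes are too few to show whether overlap affects the calls.

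Only the calls of *Atg5*, *Lamp2* and *Grn* held under each of the 14 alternatives tried, and the others of the 11 were lost under between 6 and 12 of them. Testing log2(FPKM + 1) with limma-trend, testing each gene with at least 1 count, or leaving out KO replicate 1 left exactly these 3 genes past the threshold. Under these settings 7.5% of the members passed, against 22.4%, 10.1% and 14.8% of all genes tested. The direction of the other 8 called genes was the same in each alternative.

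**Figure D4:**
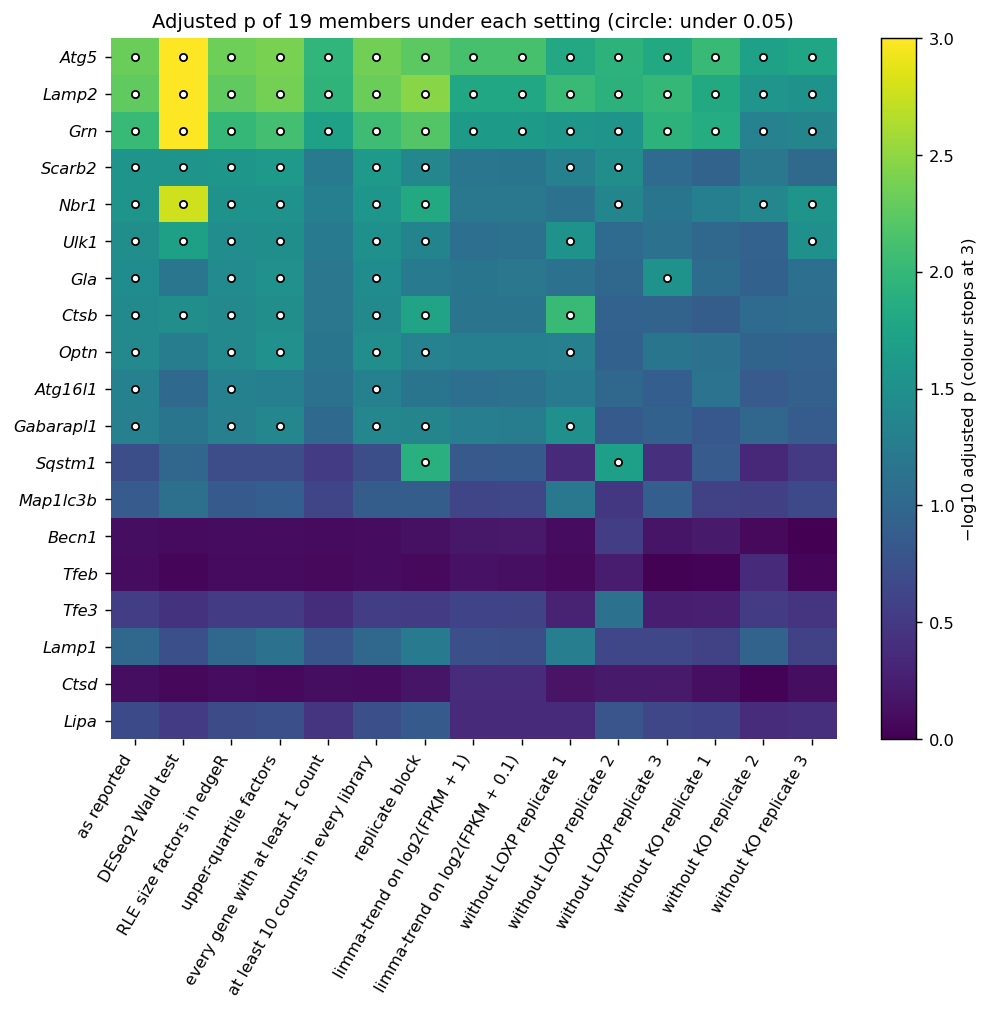
Adjusted p, as −log10 (colour, which stops at 3), of 19 members (vertical axis) as reported and under 14 alternatives (horizontal axis), where a circle marks an adjusted p under 0.05. The rows of *Atg5*, *Lamp2* and *Grn* carry a circle under every setting, whereas *Sqstm1* carries 2.

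Other genes of the same pathways were counted from lists written beside the members, 136 genes of which 134 were tested. In these lists 26 genes fell, 6 rose and 102 did not pass (23.9% called, against 23.1% of all genes tested), and the median log2 fold change was -0.087. The share of all genes tested was 11.6% called lower and 11.5% called higher. Of 32 further lysosomal enzymes, 8 fell and 0 rose, which is 25% called, near the 23.1% of all genes tested. Among these 8, *Ctsc*, encoding cathepsin C, was at 66.0, 75.6 and 63.6 CPM in LOXP and 43.3, 48.3 and 45.7 in KO (log2 fold change -0.58, standard error 0.0856, adjusted p = 0.00226). Of 15 genes of membrane proteins and sorting, 3 fell and 1 rose (26.7% called). *Igf2r*, the mannose-6-phosphate receptor that delivers hydrolases to lysosomes, was at 270.4, 293 and 271 CPM in LOXP and 199, 211 and 219 in KO (log2 fold change -0.41, standard error 0.0596, adjusted p = 0.00217). In contrast *Gnptab*, encoding the enzyme that starts the mannose-6-phosphate tag, was at 34.2, 32.7 and 39.6 CPM in LOXP and 46.0, 42.3 and 44.0 in KO (log2 fold change 0.31, standard error 0.0874, adjusted p = 0.0340). The groups of both genes were fully apart, and the rise of *Gnptab* was lost without LOXP replicate 1 or 2 or any one of the KO replicates (adjusted p from 0.0673 to 0.111, log2 fold change from 0.26 to 0.34).

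Of 18 genes of selective autophagy, 5 fell and 0 rose (27.8% called, against 11.6% lower and 11.5% higher of all genes tested). *Bnip3*, a mitophagy receptor of the outer mitochondrial membrane, was at 71.8, 70.1 and 49.0 CPM in LOXP and 30.7, 30.5 and 28.8 in KO (log2 fold change -1.08, standard error 0.139, adjusted p = 0.00117) and had the largest fall among the 5. It met the study's criteria, but its log2 fold change was -0.99 without LOXP replicate 1 and -0.96 on log2(FPKM + 1), short of them. Of 23 tested genes that control mTORC1 and TFEB, 3 fell and 2 rose. *Lamtor4*, a subunit of the Ragulator scaffold that holds mTORC1 on the lysosome, was at 22.3, 22.6 and 24.1 CPM in LOXP and 16.0, 16.8 and 17.1 in KO (log2 fold change -0.47, standard error 0.0835, adjusted p = 0.00534). *Prkaa1*, a catalytic subunit of the energy sensor AMPK, was at 56.4, 52.0 and 51.1 CPM in LOXP and 62.6, 62.2 and 63.3 in KO (log2 fold change 0.24, standard error 0.0667, adjusted p = 0.0349). The *Prkaa1* call was lost without LOXP replicate 2 or 3 or any one of the KO replicates (adjusted p from 0.0823 to 0.105, log2 fold change from 0.21 to 0.24). *Rragd*, a Rag GTPase of the same scaffold, is named after its values were seen because it met the study's criteria as well, at 10.2, 13.4 and 10.1 CPM in LOXP and 6.25, 5.94 and 2.62 in KO (log2 fold change -1.19, standard error 0.288, adjusted p = 0.0199). KO replicate 3 was the lowest, and without it the log2 fold change was -0.88, short of the criteria, as it was on log2(FPKM + 1) at -0.65, while the test itself was missed without LOXP replicate 2 (adjusted p = 0.0521, log2 fold change -1.04).

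The proton pump that acidifies the lysosome changed at 2 of 16 genes, both lower. That is 12.5% called lower and 0% higher, against 11.6% and 11.5% of all genes tested. *Atp6v1g1*, a subunit of its peripheral stalk, was at 119.9, 120.4 and 115 CPM in LOXP and 89.4, 85.2 and 77.1 in KO (log2 fold change -0.50, standard error 0.0704, adjusted p = 0.00183). Of 30 further genes of the autophagy core, 5 fell and 3 rose. *Vmp1*, which encodes a lipid scramblase of the endoplasmic reticulum needed for autophagosome formation, was at 226, 209 and 195 CPM in LOXP and 173, 153 and 174 in KO (log2 fold change -0.33, standard error 0.0759, adjusted p = 0.0157). The call was lost without KO replicate 2 (adjusted p = 0.0632, log2 fold change -0.27). *Wdr45b*, a relative of *Wipi1* and *Wipi2*, was at 57.2, 61.4 and 60.05 CPM in LOXP and 76.6, 75.3 and 68.8 in KO (log2 fold change 0.31, standard error 0.0702, adjusted p = 0.0163). The call was lost without KO replicate 1 or 2 (adjusted p from 0.0565 to 0.0627, log2 fold change from 0.28 to 0.29). These lists describe counts only, and whether any of them differs from the rest of the genes was not tested.

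**Figure D5:**
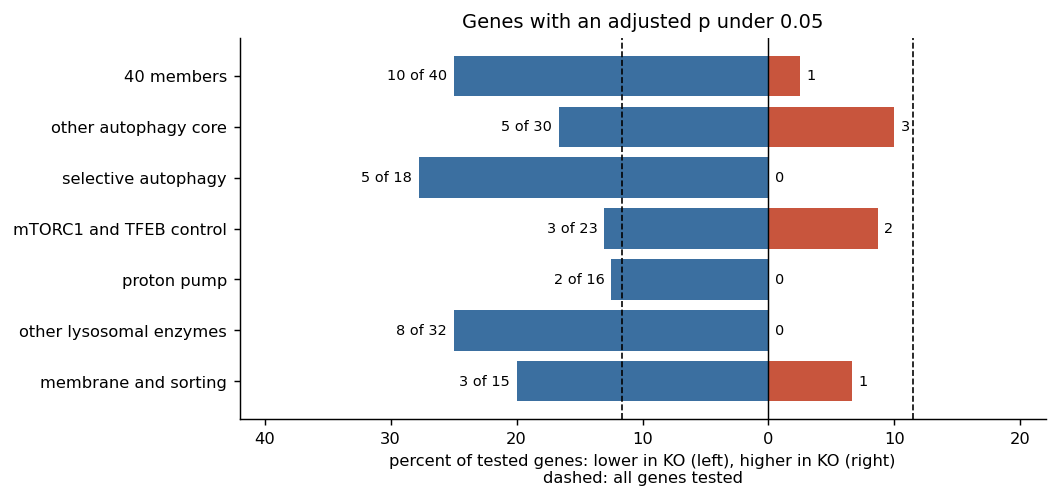
Share of the tested genes of each list (horizontal axis, percent) with an adjusted p under 0.05, lower in KO to the left and higher to the right, with the number of genes at each bar and dashed lines at the shares over all genes tested, 11.6% and 11.5%. The 40 members show 10 genes to the left and 1 to the right, and the proton pump list lies near the dashed line on the left with no bar on the right.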

How the data were processed

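Hepatocyte RNA of 3 LOXP and 3 KO libraries was analysed as labelled. The authors' aligner was HISAT2, on paired-end reads. Their deposited table gives raw counts and FPKM of each gene in each library. The submitters' processing notes also name fastp, StringTie, edgeR and build GRCm39, and coordinates of genes are as the table lists them. The counting tool, annotation and strand setting are not given in the sources used here.

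Counts were tested in R 4.3.3 with edgeR 4.0.16 (filterByExpr with a minimum count of 10, TMM, glmQLFit and glmQLFTest, Benjamini-Hochberg over all genes tested), and intervals are 95% intervals of the fit. The step was checked on simulated data. The changes set there exceeded those of all members, so detection at the members' sizes was not checked. Alternatives were DESeq2 1.42.0, RLE and upper-quartile factors, other low-count filters, a block for the replicate number, limma-trend (limma 3.58.1) on log2(FPKM + 1) and log2(FPKM + 0.1), and each library left out. Fold changes with a pseudocount are on that scale and understate those of low genes. Members, lists and the naming rule were chosen with earlier results of these data known. Values in every library are given for each member with an adjusted p under 0.05, for 8 further members fixed by name, and for the gene of smallest adjusted p in each direction of each pathway list. *Tf* of the hepatocyte markers matched no name in the table, and 1 gene of the pathway lists is not reported here. Figures were drawn with matplotlib 3.10.9.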

Additional observations from a re-analysis of the deposited data

How the results depend on the processing

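Of the members, 10 were lower with all libraries and 1 higher at an adjusted p under 0.05. The lower count was 3 with each gene of at least 1 count tested and with limma-trend under either pseudocount of 1 or 0.1 FPKM, and ran from 3 to 10 when single libraries were left out, the fewest without KO replicate 1. The higher count was 0 with DESeq2, upper-quartile factors, each gene of at least 1 count and both limma-trend settings, and from 0 to 1 without single libraries. Members called in either direction were 27.5% with all libraries, against 23.1% of all genes tested. The shares were 7.5% against 10.1% with each gene of at least 1 count, and 7.5% against 22.4% with either limma-trend setting. Without single libraries the members' share was 7.5% to 25%, against 13.7% to 21% of all genes tested. No alternative placed a member past the study's criteria. For the pathway lists, 26 lower genes became 17 to 24 without single libraries, and 6 higher genes became 3 with each gene of at least 1 count and 1 to 5 without single libraries. The members' median log2 fold change of -0.12 was -0.076 and -0.077 with limma-trend at pseudocounts of 1 and 0.1 FPKM. Under these 2 settings the median of all genes tested also moved, from -0.0021 to 0.022 and 0.033. Without single libraries the members' median ran from -0.16 to -0.084, the former without LOXP replicate 1. Leaving out a library leaves fewer samples, and the cause of the other changes was not tested. Signs turned for *Becn1* (-0.077 without LOXP replicate 3, -0.0011 without KO replicate 3, single-library range up to 0.21), *Tfeb* (-0.021 and -0.037 without the same libraries, range up to 0.23) and *Ctsd* (-0.027 without LOXP replicate 1, range up to 0.056). None of these 3 passed in any setting. *Tfeb*, with 88 reads in its lowest library, had the widest standard error of the members (0.186).

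With the replicate number as a block, 10 members were lower and 1 higher, where *Sqstm1* (log2 fold change 0.29, adjusted p = 0.0124) took the place of *Atg16l1* and *Gabarap* that of *Gla*. The labels do not say that a number marks a shared animal or day. Same-numbered libraries deviated together by a correlation across genes of 0.12, 0.083 and 0.013 for replicates 1, 2 and 3. These values do not settle whether the samples are paired. Each library except LOXP replicate 3 correlated best with its own number, for KO replicate 3 by 0.013 against 0.0099 with LOXP replicate 1. The deviations were taken from each group's mean and so depend on each other, and they do not show the design. The pathway counts with the block were 27 lower and 7 higher, and the members' median -0.11.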
